A study of Arabidopsis thaliana with 6 samples.

Results

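The TIR1/AFB family of Arabidopsis thaliana comprises 6 F-box proteins that act as the nuclear receptors of the hormone auxin: TIR1 (AT3G62980), AFB1 (AT4G03190, annotated as GRH1), AFB2 (AT3G26810), AFB3 (AT1G12820), AFB4 (AT4G24390) and AFB5 (AT5G49980). The members were taken by their gene identifiers and not by a cut on measured values, but with earlier results of these data known. They make up 6 of the 44200 features in the count table, and all 6 were among the 21606 features with enough counts to be tested. Polyadenylated RNA was sequenced from 3 biological replicates labelled Col-0 (wild type) and 3 labelled nsra/b. The nsra/b plants were a double mutant line in the Col-0 background, with T-DNA insertions in both genes for the nuclear speckle RNA-binding proteins NSRa (SALK_003214) and NSRb (Sail_717), and the question was how the transcripts of the auxin receptors differed between these genotypes when no auxin was added. All 6 libraries came from whole plantlets grown in 16 h light and 8 h dark, moved at 14 days to fresh auxin-free (mock) half-strength MS medium for 24 h and collected at 15 days, as the sample labels give it. The methods of the study give a younger age and longer reads than the labels. Auxin-treated (NAA) plants of the same study were not analysed here. The sources used here do not pair NSRa and NSRb with gene identifiers. The loci AT1G76940 and AT1G21320, taken from general knowledge to be these genes, were both higher in the libraries labelled nsra/b. AT1G76940 had 396, 519 and 441 counts across the replicates labelled Col-0, against 4987, 5898 and 5577 across those labelled nsra/b (log2 fold change 3.65, edgeR adjusted p = 4.27e-37). AT1G21320 had 17, 25 and 25 against 81, 78 and 88 counts (log2 fold change 1.93, edgeR adjusted p = 1.51e-09). If these loci are the mutated genes, their counts go against a loss of transcript in the libraries labelled nsra/b, and counts per gene do not show on which side of an insertion the reads lie. The labels are therefore not established by these data, and below Col-0 and nsra/b denote the libraries so labelled, in every direction given.

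A TIR1/AFB protein is the substrate-binding subunit of an SCF ubiquitin ligase, which it joins through an ASK adaptor and the CUL1 scaffold. Auxin fits between the leucine-rich repeats of the receptor and an Aux/IAA repressor, so that the repressor is ubiquitinated and degraded and auxin response factors are released. TIR1 and AFB2 are known as main receptors for growth responses to auxin, AFB1 is mostly cytoplasmic and serves rapid root responses, and AFB4 and AFB5 mediate much of the response to picolinate auxins. Transcripts of TIR1, AFB2 and AFB3, and to a lesser extent AFB1, are known targets of the microRNA miR393, which guides their cleavage.

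The miR393 target window is the sequence feature that divides the family, and it is shown for that reason. In the TAIR10.1 assembly, miR393a-5p (chr2:16652111-16652132, plus strand) and miR393b-5p (chr3:20691657-20691678, plus strand) had the same 22 nt sequence, given first with its seed (bases 2 to 8) in capitals. The receptor windows follow 5′ to 3′ as RNA, with capitals marking each base that was unpaired with the microRNA or formed a G:U pair.
miR393a-5p and miR393b-5p: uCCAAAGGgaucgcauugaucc
TIR1: gAGAcaaugcgaucccuuugga
AFB1: gAGAcCaugcgaucccuuugga
AFB2: gAaAcaaugcgaucccuuugga
AFB3: gAaAcaaugcgaucccuuugga
AFB4: UCCAAUaugAgGuUUGuuuggU
AFB5: UACAACaugAgGuUUGuuugga
All 6 windows lay in coding sequence, at chr3:23273727-23273748 (minus strand) in TIR1, chr4:1405341-1405362 (minus strand) in AFB1, chr3:9870237-9870258 (plus strand) in AFB2, chr1:4369085-4369106 (minus strand) in AFB3, chr4:12614106-12614127 (minus strand) in AFB4 and chr5:20334605-20334626 (minus strand) in AFB5. AFB2 and AFB3 carried identical windows with 2 mismatches and no G:U pair. TIR1 had 2 mismatches and 1 G:U pair. AFB1 had 3 mismatches and 1 G:U pair. In the aligned stretch of AFB4 and AFB5, 12 and 11 bases were mismatched or formed G:U pairs. Their best windows, elsewhere in the coding sequence, had 7 and 8 bases off. Among 27438 genes searched on the transcript strand, 2 had a best window with at most 2 bases off, 3 with at most 3, 8 with at most 4 and 22 with at most 5. A match of this kind describes the sequence and does not show cleavage.

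The 6 genes lie on 4 chromosomes of the TAIR10.1 assembly. TIR1 occupies chr3:23273065-23276630 (minus strand) with 3 exons, AFB1 chr4:1404887-1407402 (minus strand) with 3 exons, and AFB2 chr3:9867652-9870782 (plus strand) with 3 exons. AFB3 occupies chr1:4368760-4371298 (minus strand) with 4 exons, AFB4 chr4:12613076-12616238 (minus strand) with 6 distinct exons over 2 transcripts, and AFB5 chr5:20333897-20336671 (minus strand) with 3 exons. By coding sequence the family falls into 3 pairs, with 68.6% identity between TIR1 and AFB1, 82.1% between AFB2 and AFB3 and 80.3% between AFB4 and AFB5. Identity between genes of different pairs ranged from 52.9% to 62.1%. The longest run of identical bases shared by any 2 receptor transcripts was 38 nt, between AFB4 and AFB5, against a labelled read length of 100 nt.

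The libraries held 25936176 to 32578330 counts, and TMM scaling factors, which correct library size for composition, ranged from 0.992 to 1.01. A count of 3 corresponded to 0.0921 to 0.116 CPM, the unit that scales the counts of a gene to the total of its library, well below the level of each receptor. In the edgeR quasi-likelihood test at a Benjamini-Hochberg adjusted p under 0.01, 1914 features were called, 1140 higher and 774 lower in nsra/b, which is 8.86% of those tested. The summed level of 12 root marker genes was 139.7 to 145.3 CPM in Col-0 and 156.4 to 167.0 CPM in nsra/b, with no overlap (exact permutation test, two-sided, p = 0.1, the smallest that 3 against 3 allows), and 3 of the 11 tested (CASP1, PRP3 and IRT1) were called higher. The difference in the sum lay in these 3 genes, since the other 9 summed to 73.93 to 77.5 CPM in Col-0 and 74.51 to 76.79 CPM in nsra/b, with overlap (exact p = 0.9). Of the 8 tested among them, 4 estimates were higher and 4 lower, with PLT2 (log2 fold change -0.995, edgeR adjusted p = 0.0352, under 1 CPM) and PIN2 (-0.09) lower in nsra/b without overlap. The 7 floral markers summed to 20.0 to 21.69 CPM in Col-0 and 16.29 to 17.93 CPM in nsra/b, also with no overlap (exact p = 0.1). Only 2 of these 7 were tested, 1 of which (PI) was called lower, and AP1, LFY and AP3 were at or near 0. PI was at 9.86 ± 0.319 CPM in Col-0 and 6.31 ± 0.368 CPM in nsra/b. SEP3, the other gene tested, overlapped at 10.6 ± 1.23 against 10.3 ± 0.897 CPM. The 8 leaf markers overlapped between genotypes, at 39340 to 41340 CPM against 38830 to 39720 CPM (exact p = 0.3), and 1 of them (LHCB1.1) was called lower. The part of these organ markers in the receptor values was not tested. In RNA from whole plantlets, fewer cells of a type and less RNA per cell cannot be told apart.

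None of the 6 receptors was called between nsra/b and Col-0. All 6 point estimates were below 0, with a median log2 fold change of -0.06 and a range from -0.10 for AFB1 to -0.01 for AFB4, which places the nsra/b levels at 0.93 to 0.993 times those of Col-0. TIR1, AFB1 and AFB2 had no overlap between the libraries of the genotypes, whereas AFB3, AFB4 and AFB5 overlapped. The count of called receptors was 0 of 6 in edgeR, DESeq2 and limma voom, beside the 8.86% of all features called by edgeR, 5.18% by DESeq2 and 8.68% by limma voom. At an unadjusted p under 0.05 there were 3 of 6 in edgeR, against 26.7% of all features, with 2 of 6 in DESeq2, against 17.3%, and 3 of 6 in limma voom, against 26.6%. Over all tested features the median log2 fold change was -3.79e-05, and 10804 of 21606 estimates were below 0.

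**Figure D1:**
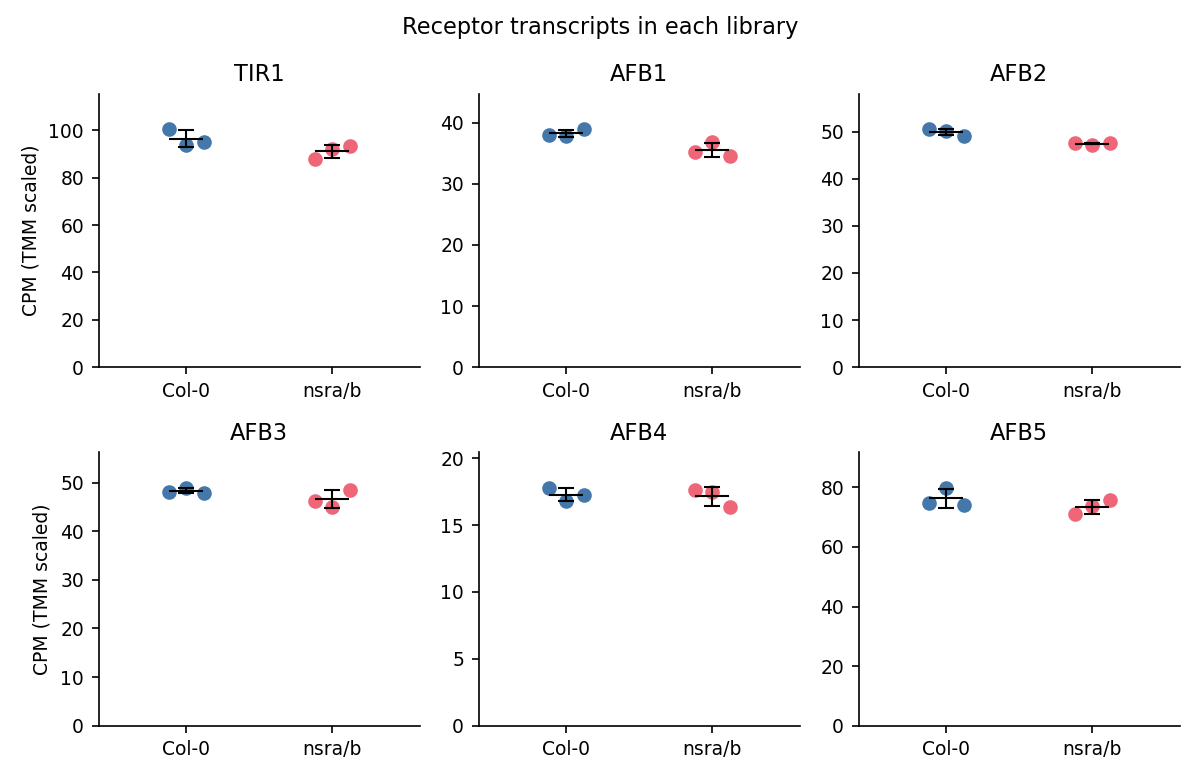
Level of each auxin receptor in the 6 libraries, in TMM-scaled CPM on axes that start at 0 (points are libraries, the horizontal line is the mean and the bars are ± 1 SD, n = 3 per genotype). The nsra/b points of TIR1, AFB1 and AFB2 sit just below all Col-0 points, while those of AFB3, AFB4 and AFB5 overlap them.

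TIR1, the founding member of the family, was measured at 2707, 3042 and 2886 counts in Col-0 and 2286, 2836 and 2800 counts in nsra/b. Scaled for library size, its level was 100.5, 93.7 and 95.08 CPM in Col-0 and 87.85, 92.26 and 93.28 CPM in nsra/b. The highest nsra/b library (93.28 CPM) was just under the lowest Col-0 library (93.7 CPM), so the groups were next to each other without overlapping. The mean was 96.43 ± 3.605 CPM in Col-0 and 91.13 ± 2.89 CPM in nsra/b (SD, n = 3), a log2 fold change of -0.08 (SE 0.0314, 95% interval -0.14 to -0.01, edgeR adjusted p = 0.0918). The spread between Col-0 replicates was 3.74% of the mean, beside 1.86% from counting alone. Without Col-0 replicate 1, the highest of the 6 libraries, the log2 fold change was -0.05 (edgeR adjusted p = 0.427), and without nsra/b replicate 1, the lowest, it was -0.05 (edgeR adjusted p = 0.3002).

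AFB1, the closest relative of TIR1, stood at 37.99, 37.8 and 38.94 CPM in Col-0 and 35.28, 36.79 and 34.58 CPM in nsra/b, from 918 to 1227 counts per library. All nsra/b libraries were under all Col-0 libraries. Its means were 38.24 ± 0.613 and 35.55 ± 1.13 CPM (SD, n = 3), with a log2 fold change of -0.10 that was the farthest from 0 of the 6 receptors (SE 0.0393, 95% interval -0.18 to -0.02) and the smallest p of the family (edgeR adjusted p = 0.0698). In fold terms the interval ran from 0.88 to 0.983 times the Col-0 level. Of all tested features, 39.1% had an estimate farther from 0 than AFB1.

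AFB2 had the most similar nsra/b replicates of the family, and was at 50.5, 50.09 and 49.12 CPM in Col-0 and 47.5, 47.24 and 47.54 CPM in nsra/b. The groups did not overlap, and the nsra/b libraries differed among themselves by 0.345% of their mean (SD), less than the 2.7% that counting error predicts for 1236 to 1452 counts. The mean was 49.9 ± 0.709 CPM in Col-0 and 47.43 ± 0.164 CPM in nsra/b, with a log2 fold change of -0.07 (SE 0.0343, 95% interval -0.14 to -0.0034, edgeR adjusted p = 0.163). In DESeq2 the adjusted p of AFB2 was 0.457, and AFB2 was the receptor that dropped out of those with an unadjusted p under 0.05 there.

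AFB3, which shares its miR393 window with AFB2, was at 48.09, 48.98 and 47.97 CPM in Col-0 and 46.34, 44.93 and 48.57 CPM in nsra/b. In nsra/b replicate 3 the level exceeded the lower 2 Col-0 libraries, and the groups overlapped. The means were 48.34 ± 0.552 and 46.62 ± 1.84 CPM, a log2 fold change of -0.05 (95% interval -0.13 to 0.02, edgeR adjusted p = 0.377). The exact permutation test on the CPM values of AFB3 gave p = 0.3.

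AFB5, the more abundant of the picolinate auxin receptors, had 74.86, 79.9 and 74.12 CPM in Col-0 and 71.09, 73.88 and 75.69 CPM in nsra/b. Here nsra/b replicate 3 lay above the lower 2 Col-0 libraries. The means of AFB5 were 76.3 ± 3.15 and 73.56 ± 2.32 CPM, a log2 fold change of -0.05 (95% interval -0.12 to 0.02, edgeR adjusted p = 0.329). AFB4, its paralog and the receptor with the fewest counts (459 to 545 per library), was at 17.79, 16.79 and 17.23 CPM in Col-0 and 17.64, 17.44 and 16.32 CPM in nsra/b. The AFB4 libraries were interleaved, with a log2 fold change of -0.01 (95% interval -0.12 to 0.10, edgeR adjusted p = 0.932). Its sign depended on which libraries were used, being 0.01 without Col-0 replicate 1 and 0.02 without nsra/b replicate 3. A p above the threshold does not show that these levels were equal, and over the 6 receptors the 95% intervals reached from 0.88 to 1.07 times the Col-0 level.

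**Figure D2:**
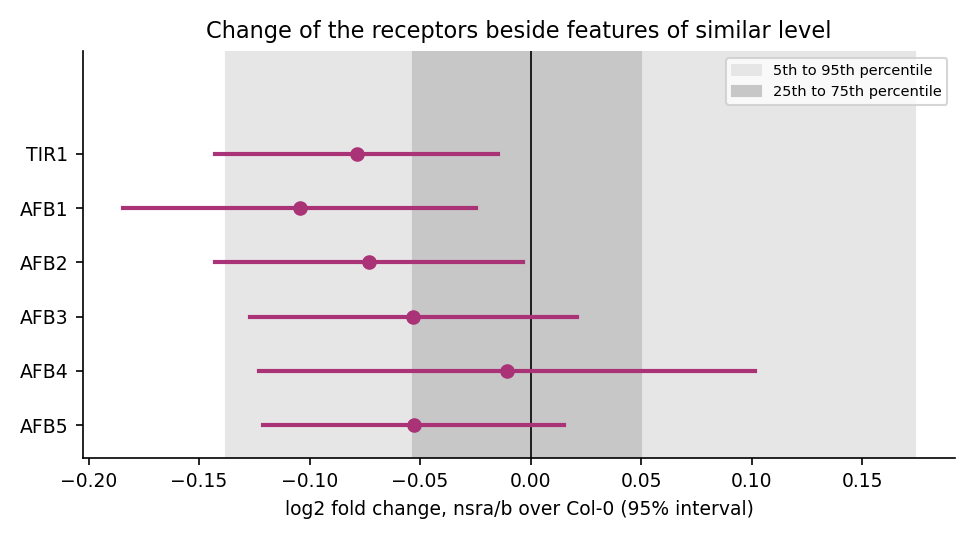
Log2 fold change of each receptor, nsra/b over Col-0 (points, with 95% intervals from edgeR), over bands from the 25th to the 75th and from the 5th to the 95th percentile of the 7989 tested features with a similar mean level. AFB1, TIR1 and AFB2 lie left of the inner band and inside the outer band, AFB3 and AFB5 lie at the edge of the inner band, and AFB4 is near 0.

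Because a change of this size is easier to detect in abundant transcripts, the receptors were also set beside the 7989 tested features with mean levels between 17.2 and 93.8 CPM, the range of the family. In that set the 25th and 75th percentiles of the log2 fold change were -0.05 and 0.05, and the 5th and 95th were -0.14 and 0.17. AFB1, TIR1 and AFB2 thus lay below the 25th percentile and above the 5th. Of this set 10.4% were called, 29.4% had an unadjusted p under 0.05 and 32.7% had no overlap between genotypes. For the receptors the corresponding counts were 0, 3 and 3 of 6, the last beside 30.0% of all tested features without overlap (14.1% lower and 15.9% higher in nsra/b).

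Levels of different genes were compared per kb of annotated exon. In Col-0, TIR1 was the most abundant receptor transcript with 36.4 ± 1.36 CPM per kb, followed by AFB5 with 30.2 ± 1.25, AFB3 with 21.6 ± 0.247, AFB2 with 18.2 ± 0.259, AFB1 with 16.5 ± 0.264 and AFB4 with 5.92 ± 0.172 CPM per kb (SD, n = 3). The order in nsra/b was identical, at 34.4 ± 1.09, 29.2 ± 0.919, 20.9 ± 0.823, 17.3 ± 0.0598, 15.3 ± 0.487 and 5.87 ± 0.243 CPM per kb. Among the 20431 tested protein-coding genes, ranked by the mean over all 6 libraries, TIR1 was above 85.7%, AFB5 above 82.7% and AFB4 above 38.9%. The level of TIR1 was 1.19 times that of AFB5 (1.12 to 1.28 over the libraries), AFB5 was at 1.4 times AFB3 (1.36 to 1.46) and AFB1 at 2.69 times AFB4 (2.51 to 2.84), each in 6 of 6 libraries. The step from AFB3 to AFB2 was 1.19 times (1.16 to 1.25) per kb of exon. Per kb of coding sequence it turned around, with AFB2 at 1.03 times AFB3 (0.982 to 1.06, higher in 5 of 6 libraries) and ranges that overlapped, so the order of these neighbours rests on the untranslated exon length assigned to them.

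**Figure D3:**
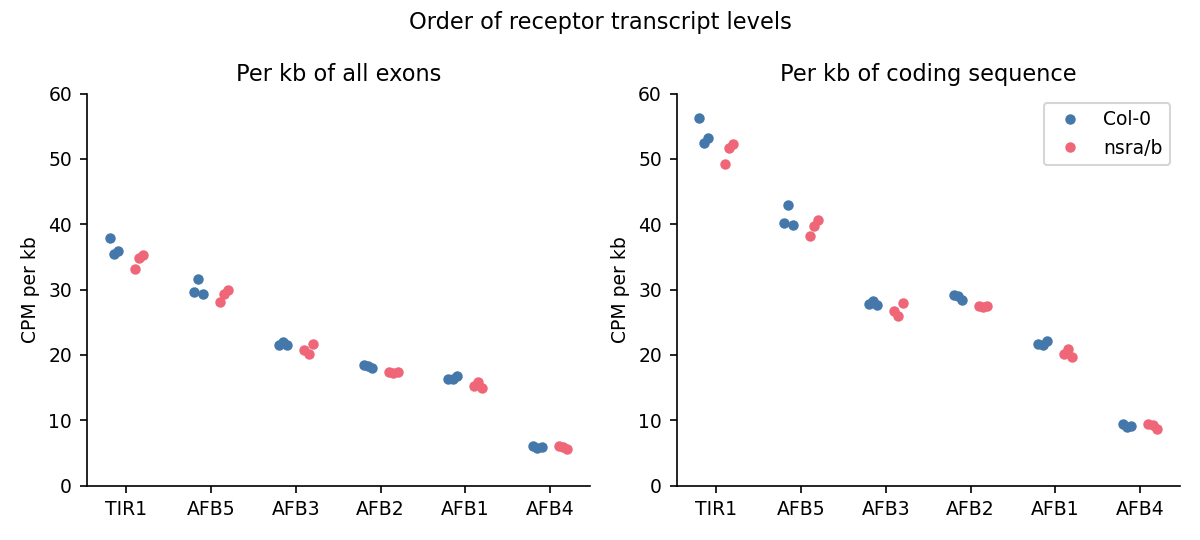
Receptor levels in CPM per kb, with each point a library, scaled by the union of exons (left) or by coding sequence (right). TIR1 and AFB5 are highest and AFB4 lowest under both lengths, and AFB3 and AFB2 change places.

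Added over the family, receptor transcripts amounted to 130.0, 129.0 and 127.0 CPM per kb in Col-0 and 121.0, 123.0 and 125.0 CPM per kb in nsra/b. Every nsra/b library was below every Col-0 library, and the means were 128.9 ± 1.39 and 122.9 ± 2.1 CPM per kb, a log2 ratio of -0.07 (exact permutation test, two-sided, p = 0.1, adjusted p = 0.3 over 6 sums and ratios). The same held for the sum of the miR393-matched receptors TIR1, AFB1, AFB2 and AFB3, at 92.75 ± 1.34 against 87.91 ± 1.39 CPM per kb (log2 ratio -0.08, exact p = 0.1). AFB4 and AFB5 together overlapped between genotypes, at 36.16 ± 1.12 against 35.03 ± 0.716 CPM per kb (log2 ratio -0.05, exact p = 0.2). The difference between these subsets was not tested.

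The composition of the receptor pool was measured as the share of each gene in this sum. TIR1 made up 28.2 ± 0.912% in Col-0 and 28.0 ± 0.433% in nsra/b, AFB5 23.5 ± 0.905% and 23.7 ± 0.345%, and AFB3 16.8 ± 0.211% and 17.0 ± 0.586%. AFB2 contributed 14.1 ± 0.0492% and 14.1 ± 0.248%, AFB1 12.8 ± 0.336% and 12.4 ± 0.473%, and AFB4 4.59 ± 0.125% and 4.78 ± 0.27%. Shares of all 6 genes overlapped between genotypes, with differences between -0.321 percentage points for AFB1 and 0.253 for AFB5 (exact permutation tests, two-sided, p = 0.3 to 0.9, adjusted p = 0.9 for each). Within the pairs, the ratio of TIR1 to AFB1 was 2.21 ± 0.096 in Col-0 and 2.25 ± 0.1 in nsra/b (exact p = 0.5), and that of AFB5 to AFB4 was 5.11 ± 0.34 and 4.97 ± 0.36 (exact p = 0.6).

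The 6 receptors were tried under 15 other settings, 6 of which left out a library. AFB1 stayed between -0.13 and -0.08 on the log2 scale when a library was left out, AFB2 between -0.08 and -0.06 and TIR1 between -0.10 and -0.05. None of the 6 was called under any of the 15. Among these, Bonferroni adjustment and the looser threshold (adjusted p under 0.05) used the main estimates, and Bonferroni adjustment could not add a call. The lowest adjusted p reached was 0.0509, for AFB1 without nsra/b replicate 2, and for TIR1 the lowest was 0.0682 without nsra/b replicate 3.

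**Figure D4:**
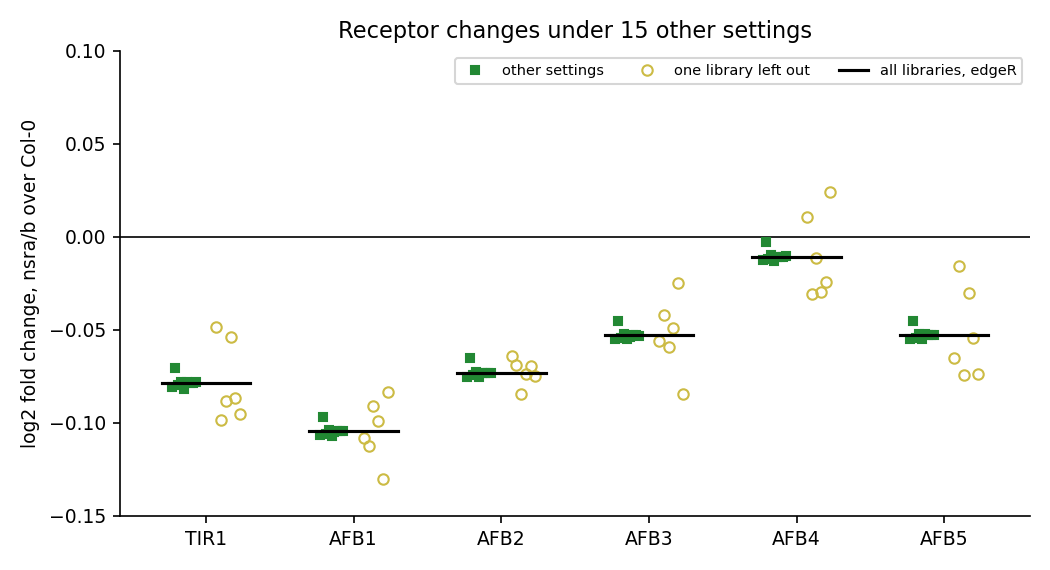
Log2 fold change of each receptor under all libraries with edgeR (black line), under other normalizations, filters, tests, designs or thresholds (squares) and with a library left out (circles). The squares for Bonferroni adjustment and the looser threshold repeat the main estimate. TIR1, AFB1, AFB2, AFB3 and AFB5 stay below 0 throughout, and AFB4 crosses 0 in 2 of the left-out settings.

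The receptors act through shared SCF subunits. Of 5 core subunit genes, 4 were tested and none was called by edgeR or DESeq2, beside 8.86% and 5.18% of all features. None had an unadjusted edgeR p under 0.05, beside 26.7% of all features, and the median log2 fold change was -0.02. CUL1, the scaffold, was at 197 ± 0.686 CPM in Col-0 and 191 ± 1.89 CPM in nsra/b, ASK1, the adaptor, had a log2 fold change of 0.02, and RBX1A, the RING subunit, of 0.01. CUL1 and ASK2 (log2 fold change -0.05 for each) were lower in nsra/b without overlap. These were 2 of the 4 tested, beside 14.1% of all features that were lower without overlap. Among 13 genes for assembly and regulation of SCF complexes, 1 was called, beside 8.86% of all features, and the median log2 fold change was 0.01. The called gene was HSP90.1, a heat-inducible chaperone of a family that helps stabilize TIR1 together with SGT1. It rose from 29.6 ± 0.628 to 37.7 ± 2.08 CPM (log2 fold change 0.35, SE 0.0432, edgeR adjusted p = 2.43e-07). HSP90.2, a more abundant member of that family, was at 163 ± 1.9 CPM in Col-0 and 162 ± 4.13 CPM in nsra/b (log2 fold change 0.0001, edgeR adjusted p = 0.9985). AXR1, which activates the ligase through RUB conjugation to CUL1, and SGT1B, the co-chaperone, were not called (log2 fold changes 0.08 and 0.01).

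Many Aux/IAA genes, though not all, encode co-receptors that the receptors degrade, and many Aux/IAA genes are themselves induced by auxin. Of 29 listed, 24 were tested, 5 were called higher and none lower in nsra/b, beside 5.28% and 3.58% of all features, with a median log2 fold change of 0.05. IAA14, a repressor of lateral root initiation, rose from 18.3 ± 0.334 to 22.4 ± 0.946 CPM (log2 fold change 0.29), IAA28 from 22.5 ± 0.1 to 26.9 ± 0.221 CPM (0.26) and IAA17 from 37.9 ± 0.757 to 44.9 ± 2.74 CPM (0.25), with edgeR adjusted p between 2.87e-05 and 9.19e-05. IAA2 (0.15) and IAA9 (0.11) were called with smaller changes, and both calls were lost without Col-0 replicate 3 or without nsra/b replicate 3, leaving 3 called. The call of IAA2 was also lost in DESeq2 (adjusted p = 0.0206), which called 4 of the Aux/IAA genes, and without Col-0 replicate 1 (edgeR adjusted p = 0.0307). That of IAA9 was also lost without Col-0 replicate 2 (edgeR adjusted p = 0.0228), and with Bonferroni adjustment 0 Aux/IAA genes were called. In the same libraries 3 of 11 tested root markers were called higher and the summed level of the other 9 overlapped between genotypes, and the part of root RNA in the Aux/IAA values was not tested.

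**Figure D5:**
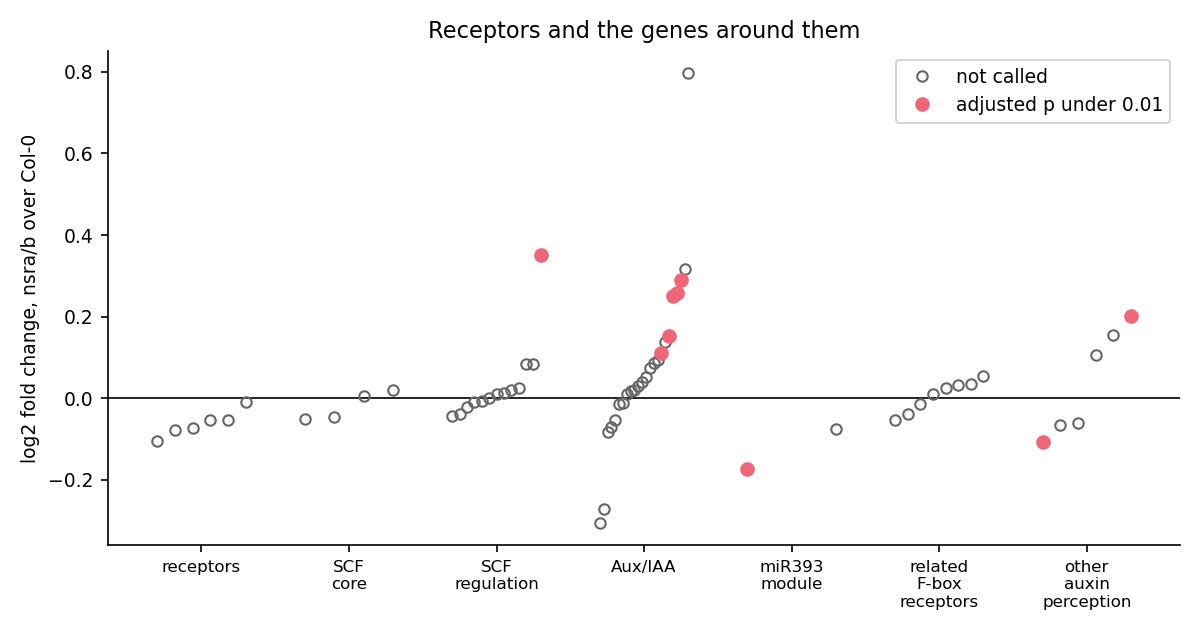
Log2 fold change, nsra/b over Col-0, of the receptors and of the tested genes in each related group (filled points have an edgeR adjusted p under 0.01, open points do not). The receptors lie between -0.10 and -0.01 with no filled point, and the Aux/IAA group holds 5 filled points, all above 0.

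Of the genes that act with miR393, AGO1, the Argonaute that carries microRNAs, was at 230 ± 2.52 CPM in Col-0 and 218 ± 3.25 CPM in nsra/b (log2 fold change -0.08, edgeR adjusted p = 0.0311), without overlap and short of the threshold. BHLH77, a basic helix-loop-helix gene, had a best miR393 window with 4 bases off, as many as AFB1. So had AT2G33540, AT4G18596 and AT5G45100, whose levels are not given here. The BHLH77 window is shown with capitals for the bases that were mismatched or formed G:U pairs (chr3:8530587-8530608, minus strand).
BHLH77: ggGucaGAgcgaucccuuuggC
BHLH77 fell from 40.6 ± 1.61 to 36.0 ± 1.51 CPM (log2 fold change -0.17, edgeR adjusted p = 0.00297). This call was lost in DESeq2 (adjusted p = 0.025), without Col-0 replicate 1 (edgeR adjusted p = 0.0368) and without nsra/b replicate 2 (edgeR adjusted p = 0.0439). The MIR393A and MIR393B precursors were not analysed here, and small RNAs are outside a polyadenylated RNA library.

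COI1, the jasmonate receptor and the nearest F-box relative outside the family, served as a comparison. It shared 45.1% to 46.2% of its aligned coding sequence with the receptors. The COI1 stretch aligned to their miR393 window had 9 bases off, and its best window, elsewhere in the coding sequence, had 8. The level of COI1 was 36.8 ± 0.949 CPM in Col-0 and 37.1 ± 1.12 CPM in nsra/b (log2 fold change 0.01, 95% interval -0.07 to 0.09, edgeR adjusted p = 0.913). The 8 related F-box genes compared were COI1, MAX2, EBF1, EBF2 and VFB1 to VFB4. None of them was called by edgeR or DESeq2, beside 8.86% and 5.18% of all features. None had an unadjusted edgeR p under 0.05, beside 26.7%, and their median log2 fold change was 0.02. Of 7 other genes linked to auxin perception, 6 were tested, with a median log2 fold change of 0.02. In each direction 1 was called, beside 5.28% of all features higher and 3.58% lower. At an unadjusted edgeR p under 0.05 there were 4 of 6, beside 26.7% of all features, and 4 had no overlap, beside 30.0%. Without overlap, ABP1 (log2 fold change 0.11, not called), SKP2B (0.16, not called) and SKP2A were higher and TMK1 was lower in nsra/b. SKP2A, a cell cycle F-box protein that binds auxin, rose from 27.8 ± 0.787 to 32.0 ± 0.313 CPM (log2 fold change 0.20, edgeR adjusted p = 0.000773), a call lost in DESeq2 (adjusted p = 0.0131) and without Col-0 replicate 3 (edgeR adjusted p = 0.0113). TMK1, a cell surface receptor kinase in auxin signalling, fell from 123 ± 0.572 to 114 ± 4.41 CPM (log2 fold change -0.11, edgeR adjusted p = 0.00855), and its call was lost in 8 of 15 alternatives, DESeq2 among them (adjusted p = 0.0317). Without a library the TMK1 call was lost for each of the 3 Col-0 libraries and for nsra/b replicates 1 and 2 (edgeR adjusted p from 0.0281 to 0.0696).

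No gene beside a receptor gene was called. Of 18 neighbouring or overlapping loci, 11 were tested, with log2 fold changes from -0.07 to 0.42. The 0.42 was that of AT3G62990, next to TIR1, at only 8 to 19 counts per library (SE 0.339, edgeR adjusted p = 0.477). At an unadjusted edgeR p under 0.05 there were 3 of 11, beside 26.7% of all features. The count of called loci was 0 in edgeR, DESeq2 and limma voom, beside 8.86%, 5.18% and 8.68% of all features. Library preparation and counting kept the strand. The protein-coding genes AT4G03180, AT1G12810 and AT4G24380 overlap the ends of AFB1, AFB3 and AFB4 on the opposite strand, and their log2 fold changes were -0.07, 0.08 and 0.11. The lncRNA AT4G04455 (chr4:1405104-1405526), which spans the miR393 window of AFB1 on the other strand, was counted 3, 1 and 1 times across Col-0 replicates 1 to 3 and 1, 0 and 0 times across those of nsra/b. The lncRNA AT1G04977 (chr1:4368980-4369617), placed likewise over AFB3, was counted 4, 1 and 2 times in Col-0 against 3, 5 and 2 times in nsra/b. The de novo locus XLOC_022164, antisense to TIR1, had 1 count in all 6 libraries together. None of these 3 loci passed the filter on low counts.

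Likeness of pattern was measured for AFB1, the receptor with the smallest p, as the Pearson correlation of log2 CPM over the 6 libraries. Among 8975 tested features with a symbol, 56 had a correlation above 0.95. The closest were ARK2 (AT1G01950, r = 0.997), RAB8C (AT5G03520, r = 0.996) and CER2 (AT4G24510, r = 0.992), each with the same rank order as AFB1 (rho = 1.0) and with r of 0.995 to 0.998 after the 2 libraries farthest from the AFB1 median were left out. These values share libraries and genotype, were selected as the highest of all compared and are given as a description.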

How the data were processed

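Stranded polyadenylated RNA-seq of 3 Col-0 and 3 nsra/b libraries was used. The deposited values are raw counts per gene. The authors removed low-quality reads, aligned the rest with TopHat at 1 reported alignment each, and made strand-specific counts in Union mode over Araport11 genes plus loci assembled de novo with Cufflinks. The submitters' processing notes name the TAIR10 build. No authors' fold changes were used.

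The members and gene lists were chosen with earlier results of these data known. Features were filtered with filterByExpr (minimum count 10, minimum total 15), scaled by TMM and tested between genotypes with the quasi-likelihood test of edgeR 4.0.16 (R 4.3.3) over 21606 features, with Benjamini-Hochberg adjustment and calls at adjusted p under 0.01. CPM values carry no prior count except in the correlations (prior count 2). The procedure was tested on simulated data whose planted changes were all larger than the receptor estimates, so recovery of changes as small as these was not tried. Sums, shares and ratios were compared with exact two-sided permutation tests. Alternatives were DESeq2 1.42.0, limma voom (limma 3.58.1), other scalings, filters and thresholds, a replicate block and each library left out. Alternatives for related genes and lists were added after seeing the data. The loci taken as NSRa and NSRb were looked up after the other results. The text names all receptors, up to 6 called genes of each list and its defining genes, neighbours, and the 3 genes most like AFB1.

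Gene models, microRNAs and target windows were read from the TAIR10.1 assembly of RefSeq, whose annotation matched all 6 members. Windows were scored without gaps, and receptor coding sequences were aligned with mafft 7.526. Multi-mapping reads were kept at a single reported alignment and could still be counted there. Depth was 25936176 to 32578330 counts per library.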

Additional observations from a re-analysis of the deposited data

How the results depend on the processing

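Of 90 alternative log2 fold changes of the receptors, 88 kept their direction and none passed the threshold. The Bonferroni and looser-threshold settings reuse the main fit, so their estimates could not differ, and Bonferroni adjustment could not add a call. The summed level kept its direction in 8 of 8 and the differences in share in 37 of 42. The count of called features, 1914 with edgeR, was 1120 in DESeq2, 494 with Bonferroni adjustment and 3218 at an adjusted p under 0.05, and 1290 to 1859 with a library left out. Leaving out a library gave log2 fold changes of -0.10 to -0.05 for TIR1, -0.13 to -0.08 for AFB1, -0.08 to -0.06 for AFB2, -0.08 to -0.02 for AFB3, -0.07 to -0.02 for AFB5 and a log2 ratio of -0.08 to -0.06 for the summed level. AFB4 turned positive without Col-0 replicate 1 (0.0104) and without nsra/b replicate 3 (0.0241), its range being -0.0305 to 0.0241. Differences in share turned for TIR1 without Col-0 replicate 1 (0.211 percentage points), AFB2 without nsra/b replicate 2 (0.00438) and 3 (0.0447), AFB3 without nsra/b replicate 3 (-0.0383) and AFB5 without Col-0 replicate 1 (-0.0692), within ranges of -0.7 to 0.211, -0.187 to 0.0447, -0.0383 to 0.517 and -0.0692 to 0.77. The cause was not tested. Ranges for AFB1 and AFB4 shares were -0.517 to -0.0582 and 0.0734 to 0.337.

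Same-numbered libraries did not deviate together (correlations -0.0119, 0.0254 and 0.0558), so the numbers were not taken as pairs. With the replicate block, 2093 features and 0 receptors were called, and the log2 fold changes were -0.08, -0.10, -0.07, -0.05, -0.01 and -0.05 for TIR1 and AFB1 to AFB5. Counting error limits AFB4 most, with 459 to 545 counts per library.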
